A study of Mus musculus with 2 samples.

Results

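The 8 head patterning homeobox genes Otx1, Otx2, Pitx1, Alx1, Alx4, Barx1, Lhx6 and Lhx8 were examined in 2 murine rhabdoid tumors (RT), by their symbols among the 55416 genes of the count table. All 8 were found there, on chromosome 11 (Otx1), 14 (Otx2), 13 (Pitx1 and Barx1), 10 (Alx1), 2 (Alx4 and Lhx6) and 3 (Lhx8). Both tumors had formed in Dppa3-cre::Smarcb1 Fl/+ mice on a C57BL/6 background, in which Cre is knocked in at Dppa3, a gene active in primordial germ cells, and 1 Smarcb1 allele is floxed. The other Smarcb1 allele is lost at random. Per the labels, 1 tumor lay inside the skull at the trigeminal nerve and 1 outside it, facial and maxillary, and both belonged to the MYC class. Ages were not given in the sources used here, and no normal tissue entered the comparison.

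Homeobox genes encode transcription factors that bind DNA through a homeodomain, and the 8 genes divide the head between them during development. Otx1 and Otx2, relatives of fly orthodenticle, are needed for forebrain and midbrain, and Otx2 later acts in retina, choroid plexus and pituitary. Pitx1 acts in the mandible, the oral ectoderm, the pituitary and the hindlimb. Alx1 and Alx4 are expressed in frontonasal mesenchyme and the skull vault. Barx1 marks jaw and tooth mesenchyme and also the stomach wall. Lhx6 and Lhx8 are LIM-homeobox genes shared by oral mesenchyme of the first pharyngeal arch and by neurons of the basal forebrain.

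The intracranial-labelled library held 34545846 counts and the extracranial-labelled library held 26915696. A level is given below as CPM (counts scaled to a common library size) with its exact 95% Clopper-Pearson interval, and counts of 3 or fewer (0.0863 and 0.112 CPM, respectively) were treated as the floor. Smarcb1, the targeted gene, had 365 counts (10.5 CPM) in the former and 530 counts (19.8 CPM) in the latter, and Dppa3 had 20 and 91 counts. Markers of keratinocytes and squamous epithelium summed to 22249 CPM in the intracranial-labelled library and 4.52 CPM in the other, so each library is called here by its label. With 1 library per location, location, animal and library cannot be told apart, and each interval covers counting error only.

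Promoter sequences are shown for 3 of the genes because these mark the extremes of what follows. Per kilobase of exon, Lhx8 and Barx1 were the most abundant of the 8 in both tumors, while Otx2 was counted in 1 tumor and had 0 counts in the other. The sequences are the 250 bases before a transcription start in RefSeq (build GRCm38.p6, which is not the build of the counts), read 5′ to 3′ on the strand of the gene. Capitals mark TAATCC, the core site of Otx and Pitx homeodomains, or its reverse complement GGATTA, and TAATTA, the palindromic core site of Alx, Barx and Lhx homeodomains. The windows lie at chr14:48665110-48665359 on the minus strand for Otx2, chr3:154330561-154330810 on the minus strand for Lhx8 and chr13:48662786-48663035 on the plus strand for Barx1.
Otx2: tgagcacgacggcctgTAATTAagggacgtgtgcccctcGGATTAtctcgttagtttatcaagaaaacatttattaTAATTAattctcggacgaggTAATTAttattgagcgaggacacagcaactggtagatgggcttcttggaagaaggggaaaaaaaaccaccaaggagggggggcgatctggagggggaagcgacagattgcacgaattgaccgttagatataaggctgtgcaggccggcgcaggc
Lhx8: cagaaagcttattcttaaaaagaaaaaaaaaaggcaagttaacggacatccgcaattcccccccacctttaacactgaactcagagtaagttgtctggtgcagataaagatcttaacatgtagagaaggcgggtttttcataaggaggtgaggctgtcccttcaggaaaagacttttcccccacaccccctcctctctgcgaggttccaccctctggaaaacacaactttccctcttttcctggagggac
Barx1: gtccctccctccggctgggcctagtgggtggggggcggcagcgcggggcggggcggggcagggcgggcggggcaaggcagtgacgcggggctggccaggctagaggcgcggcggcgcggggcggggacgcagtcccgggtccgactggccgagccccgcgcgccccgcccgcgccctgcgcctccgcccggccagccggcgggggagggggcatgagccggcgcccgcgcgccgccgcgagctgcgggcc

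The Otx2 window shown is 1 of 4 and was chosen for holding the most motif matches. It held 1 TAATCC site and 3 TAATTA sites, with no overlap between them, and 14 CpG dinucleotides. The Lhx8 window held neither motif and 4 CpG, and the Barx1 window held neither motif and 40 CpG at a GC content of 85.6%. Over all 32851 windows of this kind, 6.25% contained TAATCC on either strand and 4.84% contained TAATTA, and the median CpG number was 6. Windows matched 4 of the 8 genes (Barx1, Lhx6, Lhx8 and Otx2; 9 windows). Of the other Otx2 windows, 1 held a TAATTA site and 2 held neither motif, and none of the 3 Lhx6 windows held either motif. A motif match is a description of letters and not a bound site.

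The head patterning genes were not expressed as a block. Lhx8, Barx1 and Pitx1 took 94.1% of the 5490 counts of the 8 genes in the intracranial-labelled library and 99.1% of the 3969 counts in the other. All 8 genes were above the floor in the former, and 4 were in the latter. Of 204 genes of a homeobox list, 110 and 96 were above the floor. Over the whole table, 29670 and 27252 genes had at least 1 count, in libraries of 34545846 and 26915696 counts. The part of library depth in the detection of the 8 genes was not tested. The summed level of the 8 genes was nonetheless similar, at 158 and 148 CPM.

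**Figure D1:**
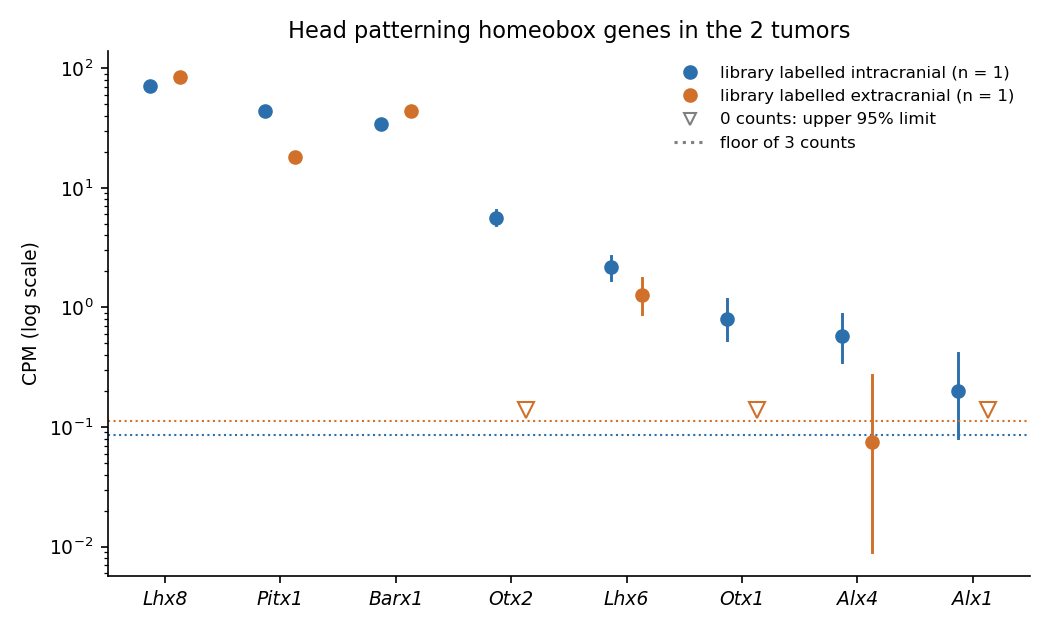
Level of each head patterning homeobox gene in CPM (log scale) in the intracranial-labelled library (blue) and the extracranial-labelled library (orange), with exact 95% counting intervals; open triangles mark the upper limit for 0 counts and dotted lines the floor of 3 counts. Lhx8, Pitx1 and Barx1 lie between 18.2 and 84.8 CPM in both libraries, while Otx2, Otx1 and Alx1 have 0 counts in the extracranial-labelled library.

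Lhx8 (ENSMUSG00000096225), which patterns palate and jaw mesenchyme and specifies cholinergic neurons, had the highest level of the 8. It had 2454 counts in the intracranial-labelled library, which is 70.6 CPM (67.9 to 73.5). In the extracranial-labelled library it had 2269 counts, which is 84.8 CPM (81.3 to 88.4). The levels were thus close, with a log2 difference extracranial over intracranial of 0.26 (95% interval 0.18 to 0.35), a conditional exact interval for the ratio of counts. Lhx6 (ENSMUSG00000026890), its close relative, which acts in the same oral mesenchyme and in cortical interneurons, was scarce in both. It had 75 counts (2.16 CPM, 1.70 to 2.71) and 34 counts (1.27 CPM, 0.880 to 1.78), with a log2 difference of -0.76 (-1.39 to -0.16). Per kilobase of exon, Lhx8 was 62.1 times as abundant as Lhx6 (49.3 to 79.2) in the intracranial-labelled library and 127 times (90.4 to 183) in the other. The ratio of these ratios, intracranial over extracranial, was 0.490 (0.316 to 0.748), which does not depend on how the libraries are scaled.

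Barx1 (ENSMUSG00000021381), a jaw and tooth mesenchyme gene, had 1178 counts in each library. This equals 33.9 CPM (32.0 to 35.9) and 44.0 CPM (41.5 to 46.6), and a log2 difference of 0.38 (0.26 to 0.49). Barx1 and Lhx8 therefore held nearly the same proportion in both tumors. Per kilobase, Lhx8 over Barx1 was 1.15 (1.07 to 1.23) in the intracranial-labelled library and 1.06 (0.991 to 1.14) in the other, and the ratio of these, at 1.08 (0.978 to 1.20), was within counting error of 1.

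Pitx1 (ENSMUSG00000021506), which sets hindlimb and mandibular identity, had 1532 counts (44.1 CPM, 41.9 to 46.4) and 486 counts (18.2 CPM, 16.6 to 19.9). It was 2.43-fold higher in the intracranial-labelled library, with a log2 difference of -1.28 (-1.43 to -1.13). Its proportion to Lhx8 shifted as well. Lhx8 over Pitx1 per kilobase was 1.68 (1.58 to 1.79) and 4.90 (4.44 to 5.41), and the ratio of these was 0.343 (0.305 to 0.386). Gm47071, an annotated antisense gene that shares 165 exon bases with Pitx1, had 124 and 40 counts. Whether the strand was used in counting was not given in the sources used here, so these reads cannot be separated from Pitx1 reads with certainty.

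Otx2 (ENSMUSG00000021848), the anterior head gene, had 196 counts in the intracranial-labelled library, which is 5.64 CPM (4.88 to 6.49). It had 0 counts in the extracranial-labelled library, for which the exact upper limit is 0.138 CPM. With that library set to the floor of 3 counts the difference was 50.3-fold, and the interval put Otx2 at least 40.5-fold higher in the intracranial-labelled library. The partner genes with shared exon bases were nearly uncounted, with 5 and 0 counts for the antisense Otx2os1 and 1 and 0 for Gm49154. Otx1 (ENSMUSG00000005917), its paralog, showed the same one-sided pattern at a lower level, with 28 counts (0.806 CPM, 0.535 to 1.16) and 0 counts. The difference was 7.19-fold against the floor, and at least 5.47-fold by its interval. Per kilobase, Otx2 was 8.99 times as abundant as Otx1 (6.03 to 13.9) in that library.

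The Alx genes of the frontonasal region were at the edge of detection. Alx4 (ENSMUSG00000040310) had 20 counts (0.576 CPM, 0.352 to 0.889) and 2 counts (0.0747 CPM, 0.00905 to 0.270), which is a ratio of 5.13-fold with the lower library at the floor and a log2 interval of -6.09 to -0.90. Alx1 (ENSMUSG00000036602) had 7 and 0 counts, too few for a call. Both had more counts in the intracranial-labelled library.

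To read these ratios against the whole table, genes whose summed count reached 10 were tested, and a gene was called where its entire interval lay beyond 4-fold. Of the 7 head patterning genes that passed this count minimum, 2 were called, Otx2 and Otx1, against 7.19% of the 21977 genes tested. Both were higher in the intracranial-labelled library, a direction called for 5.41% of genes tested. Among the other homeobox genes of a list of the class, 24.5% of 102 tested were called, 14 higher in the intracranial-labelled library and 11 in the other. The median log2 difference of the 8 genes was -1.06, beside -0.04 over the 24490 genes past the floor in at least 1 tumor and -0.21 over the other homeobox genes. The value over all genes equals that of a gene with 4 counts in the intracranial-labelled library set against the floor of 3.

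**Figure D2:**
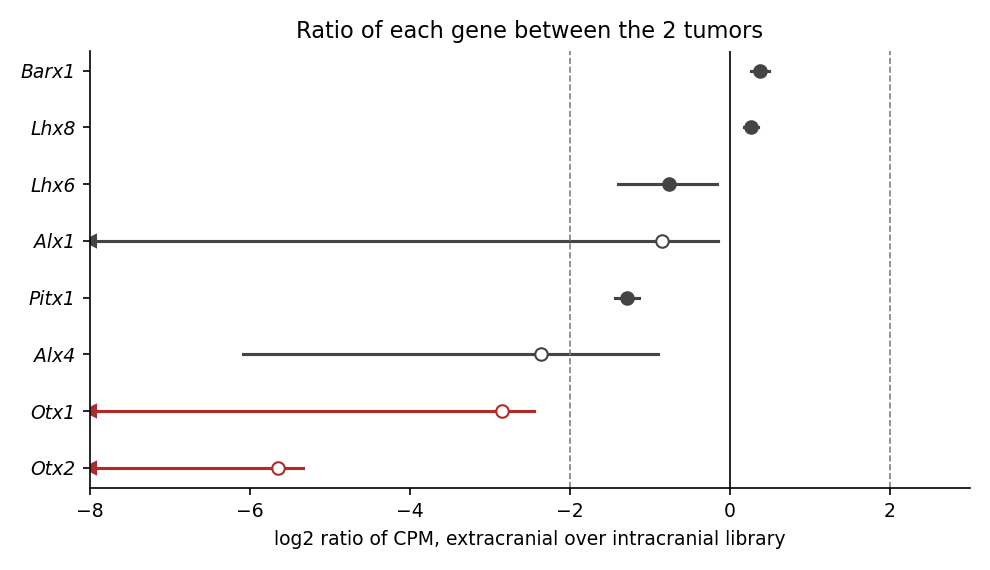
Log2 difference in CPM, extracranial over intracranial library, for each gene with its conditional exact 95% counting interval; open circles are values set against the floor of 3 counts, arrows mark intervals without an end, dashed lines mark 4-fold and red marks called genes. Otx2 and Otx1 lie wholly beyond 4-fold on the intracranial side, and Barx1 and Lhx8 lie just above 0.

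Within the homeobox class, Lhx8 and Barx1 were near the top of the list per kilobase of exon, while by CPM without length Barx1 ranked 19 and 12 and Lhx8 6 in both. Of 204 homeobox genes matched, 110 and 96 were above the floor. By CPM per kilobase of exon, Lhx8 ranked 6 and 3, Barx1 ranked 7 and 4, and Pitx1 ranked 11 and 16 (13 and 26 without length) in the libraries labelled intracranial and extracranial, respectively. Otx2 ranked 49, Lhx6 69 and 72, Otx1 82, Alx4 90 and 121, and Alx1 108, where ranks of genes with 0 counts are left out. In order of level per kilobase in the intracranial-labelled library, the genes stood at 27.9 (Lhx8), 24.2 (Barx1), 16.6 (Pitx1), 1.34 (Otx2), 0.449 (Lhx6), 0.149 (Otx1), 0.0815 (Alx4) and 0.0350 (Alx1). Alx4 over Alx1 was 2.33 (0.946 to 6.52), so that these neighbours did not differ beyond counting error. In the other library, Lhx8 (33.5) and Barx1 (31.5) were not told apart either, and Pitx1 (6.84) and Lhx6 (0.264) followed.

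**Figure D3:**
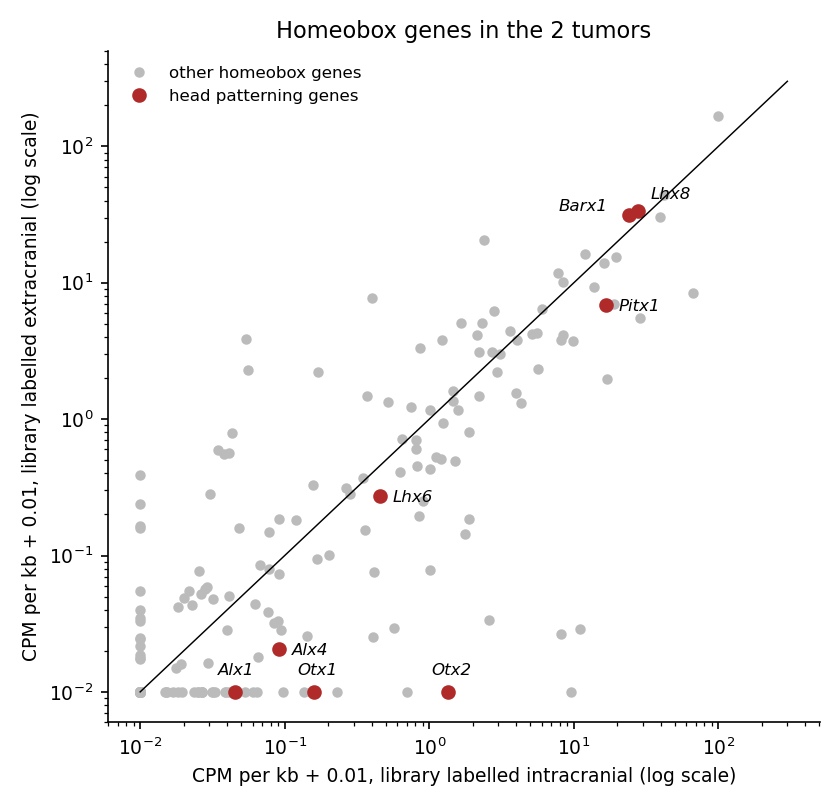
CPM per kilobase of exon plus 0.01 (both axes on a log scale) of 204 homeobox genes, intracranial-labelled library against extracranial-labelled library, with the head patterning genes in red and a line of equal level. Lhx8 and Barx1 sit together near the top of the class, and Otx2, Otx1 and Alx1 lie along the lower edge, with 0 counts in the extracranial-labelled library.

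Over the 2 libraries, the homeobox gene nearest in level to Lhx8 was Barx1, and the reverse also held, at a distance of 0.22 in log2 CPM per kilobase. Nearest to Pitx1 was Pbx3, a TALE homeobox gene with 4045 and 1138 counts, at a distance of 0.20. Nearest to Otx2 was Msx3 (57 and 0 counts, distance 0.93), so that no gene of the class matched it closely. For the scarce genes these were Tgif2 for Lhx6, Nkx1-1 for Otx1, Phox2a for Alx4 and Uncx for Alx1, with 45 counts or fewer in each library. A pattern over 2 libraries is no more than a pair of levels.

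The genes that work with or around these factors were compared next. The lists were written from general knowledge, with earlier results of these data known. Over the whole table, 1190 genes were called higher in the intracranial-labelled library and 391 in the other, of 21977 tested. Most other forebrain homeobox genes were at or under the floor. Of 19, 7 and 5 were above the floor, and 9 had 0 counts in each library, among them Nkx2-1, Emx1 and Crx, which has upstream control by Otx2 in retina. Of the 7 tested, 2 were called in each direction (57.1% in all). The median log2 difference was 0.10, which turned to -0.49 with a prior count of 2. Six3, a forebrain and eye gene, had 24 and 0 counts, and Pou3f1 had 75 and 2. Lhx9, the most abundant of the list per kilobase in the extracranial-labelled library alone, had 15 and 578 counts, a log2 difference of 5.64 (4.91 to 6.49), and Rax, an eye field gene, had 5 and 91.

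Of 11 homeobox genes of the midbrain and hindbrain boundary, 8 were above the floor in each library and 3 of 9 tested were called (33.3%). En1 had 3 and 55 counts, Lmx1b had 67 and 2, and Irx2 had 115 and 6. Irx3 (143 and 36 counts) had the highest level per kilobase in the intracranial-labelled library, and En1 had it in the other. Gbx2, which opposes Otx2 at this boundary, had 83 and 30 counts and was not called.

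Of 12 other facial and jaw homeobox genes tested, 5 were called higher in the intracranial-labelled library and 0 in the other (41.7%). Beside this, 7.19% of all genes tested and 24.5% of the homeobox genes outside the 8 were called in either direction. Barx2, the paralog of Barx1 and an epithelial and muscle gene, had 756 counts and 1 count, a log2 difference of -7.60 (-14.49 to -6.70). Tlx2 (3688 and 356 counts), Six2 (138 and 10) and Meox2 (2346 and 348) were 7.98-fold, 10.6-fold and 5.19-fold higher in the intracranial-labelled library. The most abundant was Meox1, with 7750 and 9879 counts and a log2 difference of 0.73 (0.68 to 0.77). The median log2 difference of the list was -0.04, and -0.38 with a prior count of 2. Its middle genes, Isl2 (4 and 2 counts) and Nkx2-3 (4 and 0), were at the floor in the extracranial-labelled library and not tested.

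**Figure D4:**
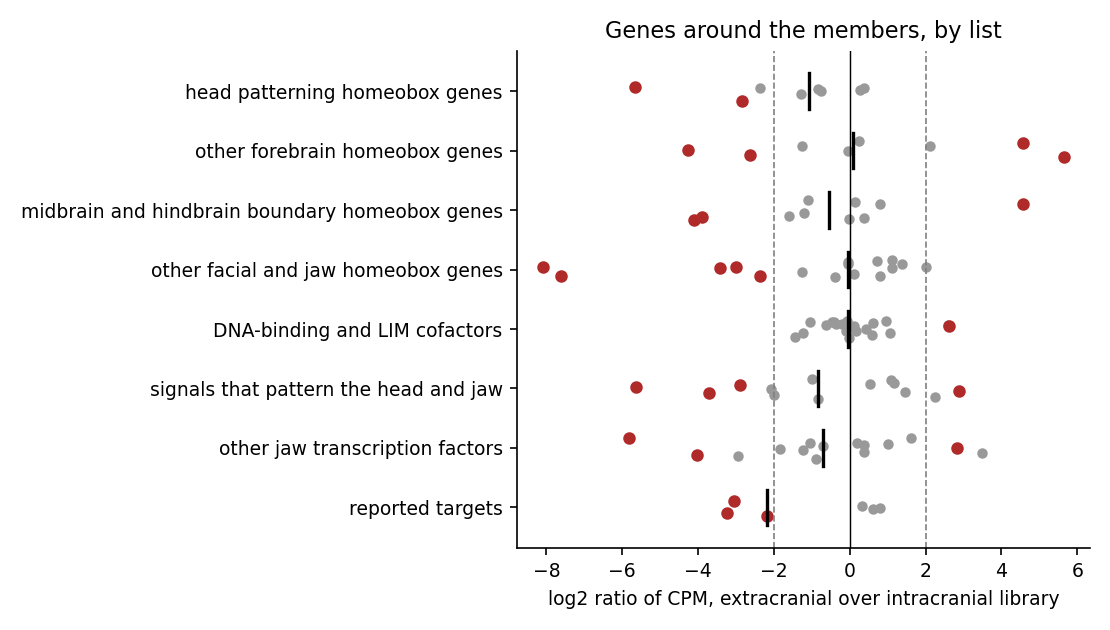
Log2 difference in CPM, extracranial over intracranial library, of each gene above the floor in either library, by list; red points are called genes, black bars are medians and dashed lines mark 4-fold. The head patterning genes have a median of -1.06, the cofactors sit close to 0, and calls occur on both sides in the lists of other homeobox genes of the brain.

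The cofactors had a median log2 difference of -0.04. Ldb1, which bridges LIM-homeodomain proteins such as Lhx6 and Lhx8, had 5322 and 4465 counts, a log2 difference of 0.12 (0.07 to 0.18). Of 20 cofactors tested, 1 was called (5.0%), a share close to that of all genes. This was Lmo2, a LIM-only gene of blood and endothelial cells, with 573 and 2718 counts (2.62, 2.49 to 2.76). Macrophage markers, led by Lyz2, summed to 5820 and 12783 CPM, but the 1 called gene of the 9, Cd163, was higher in the intracranial-labelled library (3507 and 480 counts). Their part in the Lmo2 difference was not tested.

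Signals that pattern the head were called in 4 of 12 tested (33.3%). Fgf10 had 3132 and 183 counts and Bmp7 195 and 3, with log2 differences of -3.72 (-3.94 to -3.50) and -5.65 (-7.94 to -4.08), and the BMP antagonist Nog had 29 and 0. Aldh1a3, which makes retinoic acid in the face and eye, was 7.42-fold higher in the extracranial-labelled library (425 and 2427 counts). Bmp4 (625 and 1029 counts) had the highest mean level per kilobase over both libraries, though Fgf10 was above it in the first and Aldh1a3 in the second. Fgf8, the signal that switches on Barx1, Lhx6 and Lhx8 in the embryonic jaw, had 0 counts in both libraries, with exact upper limits of 0.106 and 0.138 CPM.

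Among 15 other jaw transcription factors tested, 3 were called (20.0%). Hand2, a gene of the distal jaw, had 1815 and 86 counts and was 16.3-fold higher in the intracranial-labelled library. Tfap2b had 219 and 3 counts and Osr1 209 and 1143. Twist1, a mesenchyme gene and the most abundant of the list, had 4809 and 2262 counts.

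Genes known in other tissues as targets of these factors were read next. Sfrp1 and Sfrp2, Wnt antagonists that need Barx1 in the embryonic stomach, had 256 and 21 counts and 86 and 8 counts, 9.39-fold and 8.28-fold higher in the intracranial-labelled library, whereas Barx1 itself was close in both. Ackr3, a chemokine receptor downstream of Lhx6 in interneurons and the most abundant of the list per kilobase in the intracranial-labelled library, had 7894 and 1341 counts. Of 6 tested, 3 were called, all on the intracranial side, and the median over 7 genes was -2.17 in log2. Crx and Rbp3, targets of Otx2 in retina, and Tbx4, a target of Pitx1 in hindlimb, had 0 counts in both. Pomc, a target of Pitx1 in pituitary, had 35 and 6 counts and was not called.

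Because several of the 8 genes are active in normal tissues of the head, markers of those tissues were read beside them. The keratinocyte and squamous list, led by Krt13 (366709 and 5 counts), was above the floor for 12 of 12 genes in the intracranial-labelled library and 3 of 12 in the other, with Trp63 at 1284 and 0 counts. It was higher in the same library as Otx2, Otx1, Pitx1 and Barx2. Pituitary markers also did, with 5 of 10 and 1 of 10 genes above the floor and summed levels of 9.47 and 0.336 CPM. Gh had 244 and 0 counts and Prl 35 and 0, but Lhb and Fshb had 0 counts in both. The part of these tissues in the Otx2, Otx1, Pitx1 and Barx2 differences was not tested, and in bulk RNA fewer cells of a type cannot be told apart from less RNA per cell.

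For retina and choroid plexus, in which Otx2 is active, several markers had 0 counts in both libraries and others were counted. Of 8 choroid plexus genes, Ttr and Kl had 0 counts in both libraries, and the summed level (77.0 and 63.2 CPM) came mostly from Aqp1, with 1903 and 1460 counts. Prlr (85 and 6 counts) was called higher in the same library as Otx2, and Enpp2 (668 and 210) was not called. The part of choroid plexus in the Otx2 difference was not tested. Of 10 retina genes, Crx, Rbp3, Rpe65 and Tyrp1 had 0 counts in both, and the list summed to 5.21 and 7.10 CPM, led by Best1 (90 and 136 counts). Olfactory epithelium genes summed to 20.5 and 9.83 CPM, with 9 and 4 of 9 above the floor, led by Adcy3 (361 and 165 counts), while Omp of mature receptor neurons had 42 and 43 counts. Of this list, Stoml3 (27 and 0 counts) and Ano2 (67 and 1) were called higher in the same library as Otx2, and their part in the Otx2 difference was not tested.

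For Lhx8 and Lhx6, some neuronal markers were scarce in both tumors and others were counted. Chat, the enzyme of cholinergic neurons, had 2 and 0 counts, and the cholinergic list summed to 1.09 and 1.16 CPM, led by Slc5a7 (19 and 20 counts), beside 70.6 and 84.8 CPM for Lhx8. Gad1 had 8 and 5 counts, Gad2 had 3 and 25, and Sst had 0 in both. The interneuron list summed to 36.5 and 29.4 CPM, beside 2.16 and 1.27 CPM for Lhx6. This sum rested on Npy, with 297 and 144 counts, and on Dlx1 (549 and 318) and Dlx2 (402 and 291), which are jaw genes as well. The part of neurons or of jaw tissue in the Lhx8 and Lhx6 levels was not tested.

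Cartilage markers summed to 215 and 28.1 CPM, mostly from Comp (6474 and 270 counts), with Col2a1 at 23 and 21. Bone and tooth markers summed to 9.09 and 151 CPM, mostly from Dmp1 (29 and 3988 counts). Ibsp (186 and 15 counts) and Bglap (60 and 4) of the same list were called in the opposite direction, and the tooth genes Ambn and Dspp had 0 counts in both. Skeletal muscle summed to 55.0 and 12.0 CPM, led by Acta1 (545 and 173 counts), which was not called. Of 8 muscle genes tested, 4 were called, all higher in the intracranial-labelled library. These were Tnnt3 (476 and 42 counts), Myh1 (243 and 2), Myh2 (129 and 1) and Myh4 (53 and 0). Lhx8 and Barx1 differed by 1.20-fold and 1.30-fold between the same libraries. The part of cartilage, bone, tooth or muscle in the Lhx8 and Barx1 levels was not tested. Nor was the part of muscle in the Otx2, Otx1, Pitx1 and Barx2 differences. Meningeal markers, led by Crabp2 (5112 and 5871 counts), summed to 183 and 244 CPM.

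**Figure D5:**
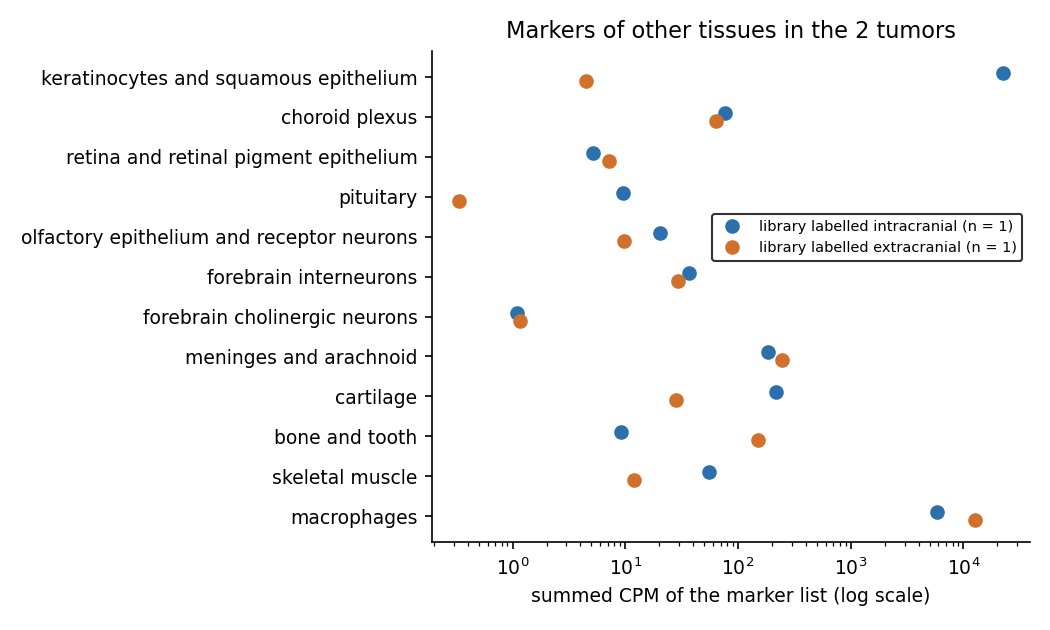
Summed CPM (log scale) of the marker list of each tissue in the intracranial-labelled library (blue) and the extracranial-labelled library (orange). Keratinocyte markers stand at 22249 and 4.52 CPM and pituitary markers at 9.47 and 0.336 CPM, while the lists of forebrain cholinergic neurons stand at 1.09 and 1.16 CPM.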

How the data were processed

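Bulk RNA-sequencing was carried out on 2 tumors. The authors deposited raw counts for each Ensembl gene, not normalized, in a table that gives each tumor its own column. Poly(A) RNA was selected by the authors, who sequenced directional libraries as single reads, then aligned them with STAR 2.7.9a (default settings) to the GRCm39 genome with Ensembl 104 models and counted with featureCounts, per the labels and the study's methods. The strand setting and the handling of multiply aligned reads were not given in the sources used here. The deposited counts total 34545846 and 26915696.

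Symbols, biotypes and summed exon lengths came from GENCODE M21, an older annotation, which matched 52135 IDs (94.1%). Unmatched IDs stayed in library sizes. CPM used TMM-scaled library sizes (edgeR 4.0.16, R 4.3.3; factors 1.006 and 0.994). With 1 library per location, edgeR's quasi-likelihood test could not be fitted, and no p-value is given. Intervals are exact (Clopper-Pearson, SciPy 1.17.1). Counts of 3 or fewer were set to 3 for ratios. Ratios of ratios used the conditional odds ratio. The procedure was tested on simulated counts.

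The 8 genes and all lists were chosen with earlier results of these data known. Named genes are the members, the called genes of each list (up to 5 a direction), the gene of each list with the highest mean level per kilobase, the nearest homeobox gene to each member and genes with overlapping exons. Other list genes named at or near 0 counts, or as known partners, were chosen after their values were seen. Some list genes, 1 called gene among them, are counted but not reported here by name. Of 205 homeobox genes listed, 204 were matched (Drgx as Prrxl1), as were 20 of 21 cofactors and all genes of the other lists.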

Additional observations from a re-analysis of the deposited data

How the results depend on the processing

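No paired analysis was possible because there was 1 library for each location, and for the same reason no library could be left out in turn. Scaling by DESeq2 size factors, by the upper quartile or by total counts shifted every log2 ratio by at most 0.04 in size and left each head patterning gene on its side of 0 and of the 4-fold limit. Under these scalings and with genes of any count, Otx2 and Otx1 were the 2 genes called. Requiring 100 or more counts left 1, Otx2, since Otx1 has fewer counts in all. An interval beyond 2-fold called 3434 genes of the table and added Pitx1, and the ratio alone beyond 4-fold called 2542 and added Alx4, since both rules are looser. With a prior count of 2, the median log2 difference of the 8 genes moved from -1.06 to -1.66, that of the other forebrain homeobox genes changed sign (0.10 to -0.49), and the 8 single ratios kept their sign and stayed within their intervals. The cause of the sign change was not tested. Ranks in the homeobox class changed without the exon length, for Barx1 to 19 and 12 and for Pitx1 to 13 and 26. Genes with fewer than 10 counts in all, such as Alx1, were not tested, and every interval leaves out variation between animals.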
